A study of Arabidopsis thaliana with 12 samples.

Results

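AT3G04210 is a gene of the TIR-NBS family of Arabidopsis thaliana, and it was read by 1 probe of the 3439 on these arrays. The probe was found by its number in the platform annotation, which gives it this gene alone, as it does for 692 of the 3439 probes. The gene was chosen by its measured difference between the mutant mak3 and wild type (WT), which was among the highest of the probes with 1 gene. That difference is therefore described here and not tested.

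Total RNA of WT plants of ecotype Columbia 0 was compared with that of the mutant mak3 in the same ecotype, which is impaired in a cytoplasmic N-acetyltransferase. MAK3 is the catalytic part of N-terminal acetyltransferase C (NatC), which acetylates the starting residue of a range of proteins as they are made. The question behind the comparison is how the transcripts of a plant change when this modification is impaired. There were 6 arrays for each of the 2 genotypes. The labels give no allele, tissue, age or growth condition, and the transcript of MAK3 itself was not analysed here, so the genotype labels have no check of their own.

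TIR-NBS proteins belong to the intracellular immune receptors of plants. Full-length receptors of the TIR class join several domains. The TIR domain starts signalling, the nucleotide-binding (NBS) domain switches the protein between an off and an on state, and leucine-rich repeats sense effectors of a pathogen or the damage they do. Proteins of the TIR-NBS group have the first parts and lack the repeats. TIR-class receptors in general signal through EDS1 and its partners PAD4 and SAG101, and the transcripts of many receptors of this class are known to respond to immune activation. No genome position is given for the gene, since the files name no genome build.

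The deposited intensity of AT3G04210 was higher on each mak3 array than on each WT array. In WT, arrays 1 to 6 read 0.697, 0.742, 0.738, 0.725, 0.740 and 0.701, on a linear scale whose mean over all probes of an array lay between 0.946 and 1.05. In mak3, arrays 1 to 6 read 1.07, 0.933, 1.72, 1.70, 1.35 and 1.33. The lowest mak3 array stood at 1.26 times the highest WT array, so the genotypes did not overlap. All 6 mak3 arrays lay above all 6 WT arrays, on the normalized scale described below, for 40 probes or 1.16% of the 3439, and all 6 lay below for another 40. The gap between the lowest mak3 and the highest WT array was 0.22 on the log2 scale, the 9th widest of those 40. Since this contrast chose the gene, nothing is read from that place.

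**Figure D1:**
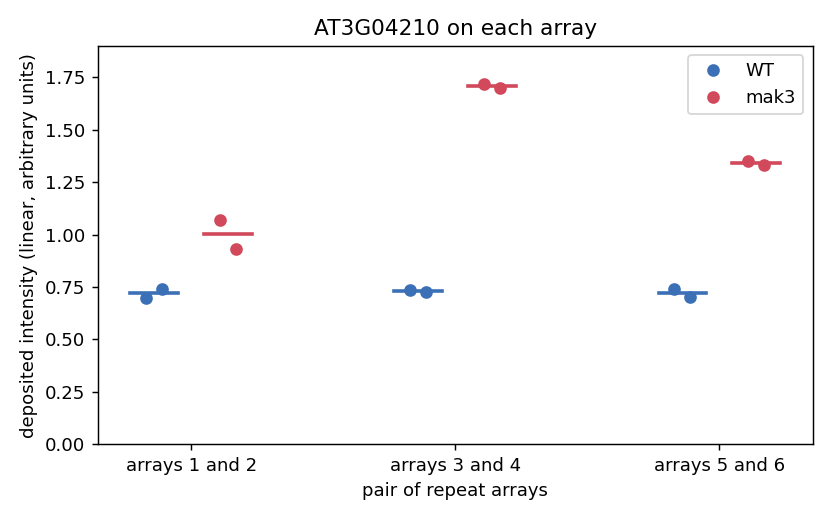
Deposited intensity of AT3G04210 on each of the 12 arrays, with WT in blue and mak3 in red. Points are single arrays and the short lines are the means of the repeat arrays. The WT points lie between 0.697 and 0.742, the mak3 points between 0.933 and 1.72.

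Within a genotype, the arrays fell into 3 pairs by number (1-2, 3-4 and 5-6) that were near repeats of each other over all probes (r = 0.976 to 0.993 on the log2 scale, against 0.841 to 0.940 for other arrays of the same genotype). Each such pair was counted as 1 sample, so that n = 3 for each genotype. The labels do not say whether the samples came from separate plants, and their spread may be technical. For AT3G04210 the repeat readings differed by 0.08, 0.02 and 0.07 on the log2 scale in WT, and by 0.21, 0.02 and 0.00 in mak3. The widest of these gaps was that of mak3 arrays 1 and 2, where the median gap over all probes was 0.13.

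In WT the gene was of middling brightness. It ranked between 1139 and 1391 among the 3439 probes of an array, with 1 as the brightest, and by its mean over the WT samples it was brighter than 65.0% of the probes. In mak3 it ranked 647 and 859 on arrays 1 and 2, 234 and 237 on arrays 3 and 4, and 301 and 299 on arrays 5 and 6. By its mean over the mak3 samples it was brighter than 90.1% of the probes. Ranks within an array do not depend on how the arrays are scaled to each other, but different probes bind their targets differently, so a rank is not an abundance relative to other genes.

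The WT level was steadier than that of most probes, and the mak3 level was not. Over the 6 WT arrays the highest deposited intensity was 1.06 times the lowest, where the median probe varied by a factor of 1.73. By this ratio of deposited values, only 2 of the 3257 probes that were above 0 on all arrays varied less in WT. In mak3 the highest array was 1.84 times the lowest, the same as the median probe at 1.84. After quantile normalization, which gives every array the same distribution of values, the level was -0.56 ± 0.07 in WT and 0.38 ± 0.48 in mak3 (mean ± SD on the log2 scale, n = 3). Of the 3205 probes never at the floor set for the dimmest values, 3.09% had a smaller SD in WT and 76.3% a smaller SD in mak3. Among the 200 probes nearest in mean level, 4 had a smaller SD in WT and 162 a smaller SD in mak3.

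**Figure D2:**
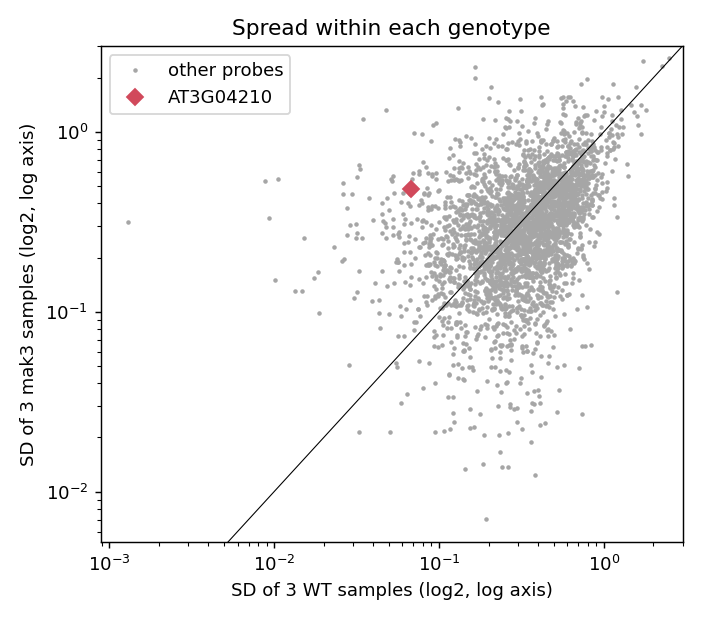
SD of the 3 WT samples against SD of the 3 mak3 samples for the 3205 probes never at the floor (the low limit to which the dimmest values were raised), both on log axes in log2 units, with the line of equality. AT3G04210 (red diamond) has an SD of 0.07 in WT, where the median probe has 0.33, and of 0.48 in mak3, where the median probe has 0.31.

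Most other probes varied more between the same WT samples, with a median SD of 0.33 on the log2 scale against 0.07 for AT3G04210. The deposited array medians lay between 0.559 and 0.605 in WT. In mak3 they were 0.598 and 0.599 on arrays 1 and 2, 0.490 and 0.492 on arrays 3 and 4, and 0.420 and 0.421 on arrays 5 and 6. Set against the median of its own array, AT3G04210 stood at 1.16 to 1.31 times that median in WT. In mak3 it stood at 1.79 and 1.56 times on arrays 1 and 2, 3.51 and 3.45 times on arrays 3 and 4, and 3.22 and 3.16 times on arrays 5 and 6.

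The mak3 minus WT difference had one direction in all 3 pairs, and its size differed between them. Pair 1-2 gave 0.42 on the log2 scale, pair 3-4 gave 1.25 and pair 5-6 gave 1.16, or 1.34, 2.39 and 2.24 times the WT level. Pairs 3-4 and 5-6 were thus close to each other, and on the log2 scale the difference of pair 3-4 was 2.99 times that of pair 1-2. That likeness was not particular to this gene. Over all probes the differences of pairs 3-4 and 5-6 correlated at r = 0.631. Those of pair 1-2 correlated with them at only 0.006 and 0.029. Compared array by array, the differences of AT3G04210 were 0.57 and 0.27 for numbers 1 and 2, 1.25 and 1.26 for numbers 3 and 4, and 1.12 and 1.20 for numbers 5 and 6. Most of this variation lay in mak3. The mak3 sample of arrays 3 and 4 was 0.92 above that of arrays 1 and 2, about as much as the mean difference between the genotypes. In WT the same step was 0.09.

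**Figure D3:**
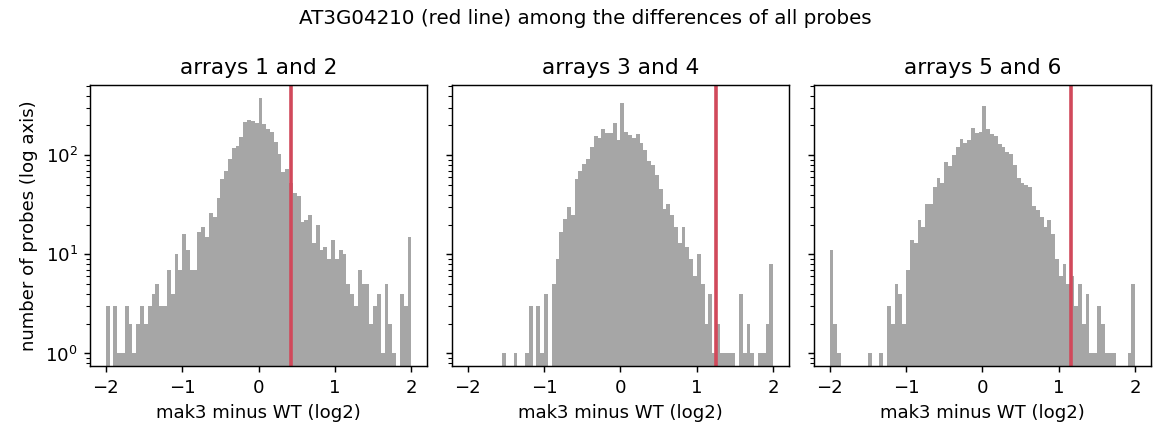
Mak3 minus WT differences of all 3439 probes in each pair of arrays, in log2 units, with AT3G04210 as a red line. The number of probes is on a log axis, and differences beyond 2 in either direction are counted in the end bins. The line is at 0.42 for arrays 1 and 2, on the flank of the distribution, and in the upper tail at 1.25 and 1.16 for the others.

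Against all probes of the same pair, the difference of AT3G04210 ranked 361 from the top in pair 1-2, 26 in pair 3-4 and 36 in pair 5-6. In pair 1-2, 10.5% of the probes were at least as high, against 0.756% and 1.05% in the other pairs. The SD of the differences over all probes was similar in the 3 pairs, at 0.45, 0.39 and 0.45. With the values as deposited the 3 differences were 0.47, 1.22 and 0.90, and with each array scaled to a common median 0.43, 1.42 and 1.42. The value of pair 5-6 moved most between scalings, and it is also the pair whose array medians differed most between the genotypes.

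Over the 3 samples of each genotype AT3G04210 was higher in mak3 by 0.94 ± 0.26 on the log2 scale (moderated SE of limma, n = 3 against 3), or 1.92 times the WT level. The SE values in the text come from this fit, which was the planned one and does not use the pairing of the samples. In the fit with the pairs as a block the SE was 0.22. By size the difference was the 34th of 3439 probes and the 28th from the top. Of the 27 probes that were higher, 13 were dimmer and 14 brighter or as bright. Among the 615 probes at least as bright it was the 15th by size, and among the 200 nearest in level the 3rd, where the median size was 0.14.

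**Figure D4:**
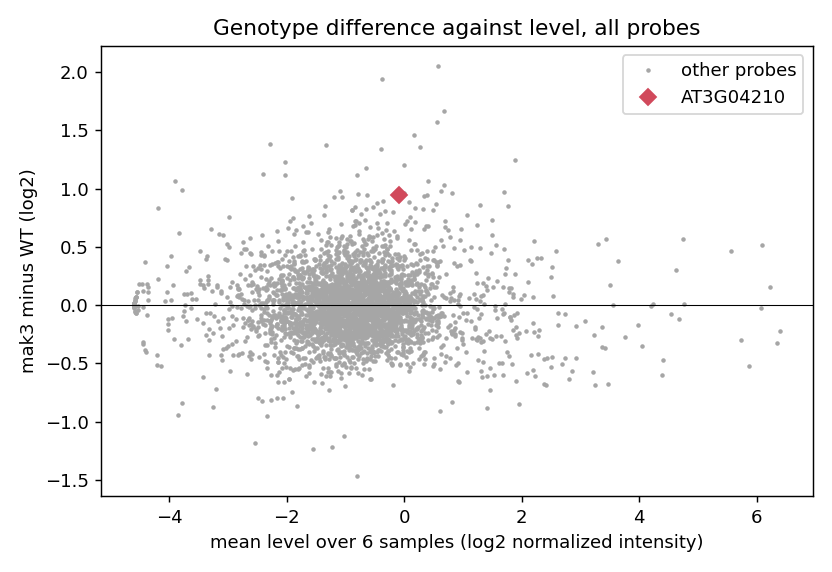
Mak3 minus WT difference against the mean level over the 6 samples for all 3439 probes, both in log2 units. AT3G04210 (red diamond) lies at a level of -0.09 and a difference of 0.94, above most probes of its level.

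Its place by steadiness depended on the measure. The difference was above 0 in all 3 pairs for 561 probes, 16.3% of the total. Ordered by the smallest of their 3 differences, AT3G04210 came 32nd among the higher probes and 51st when probes of either direction were ordered by size, and of the 27 probes with a higher mean difference 13 had a smallest difference at least as high. Only 2 probes exceeded it in every pair. The SD of its 3 differences was 0.46, which is wider than for 82.9% of the probes never at the floor, so it was steady in direction and not in size. By the p of limma it was the 31st of all probes and the 8th of those with 1 gene, and the 229th of all once the pair number was a block.

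Among the 692 probes with 1 gene it had the 5th highest difference, and the others at the top were less even in size between pairs. AT4G35660 was at 2.05 ± 0.84, with -0.18 in pair 1-2 and 3.13 and 3.21 in the others. AT1G51350 at 1.46 ± 0.81, AT1G35510 at 1.25 ± 0.77 and AT5G55580 at 0.96 ± 0.72 had their highest values in pair 1-2, at 3.18, 2.53 and 1.95 (SE, n = 3 against 3). In pairs 3-4 and 5-6 these genes were at 0.34 and 0.86, at 0.51 and 0.70, and at 0.23 and 0.72. Each was thus higher in mak3 in every pair. The smallest difference of AT1G35510, 0.51, was above the 0.42 of AT3G04210. AT4G18180, next below AT3G04210 at 0.93 ± 0.88, was at -0.15 in pair 1-2. The SE of AT3G04210 was smaller than that of each of these 5 genes. These 5 genes were named after their values were seen.

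Across all probes limma, which borrows strength over probes to estimate the spread of each, called 0 of 3439 (0%) at an adjusted p under 0.05 with Benjamini-Hochberg adjustment, with no adjusted p below 1. The count at an unadjusted p under 0.05 was 135 of 3439, a share below the 0.05 expected with no differences at all. A fit of limma with the pairs as a block again called 0 (0%), and its lowest adjusted p was 0.355. Fits to the 12 single arrays called 24 probes (0.698%), or 415 (12.1%) with the array number as a block, but they treat repeat readings as separate samples, so their p-values are too low. No p is given for AT3G04210, since this contrast chose it. An exact test of 3 samples against 3 cannot go below p = 0.1.

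Probes with nearby numbers had smaller mean differences than AT3G04210, though in pair 3-4 most of them were also higher in mak3. Over all probes, the differences of adjacent probe numbers correlated at Spearman's rho = 0.140, 0.443 and 0.376 in the 3 pairs, so the 16 other probes within 10 numbers of AT3G04210 were set beside it. Their mean differences ran from -0.12 to 0.26 with a median of 0.07, and AT3G04210 was 0.87 above that median. By pair their medians were -0.01, 0.20 and -0.05, where the medians over all probes were -0.004, -0.001 and 0. AT3G04210 was above its neighbours' median by 0.43, 1.05 and 1.21. In pair 1-2 the highest neighbour, AT5G48110 (named after its value was seen), reached 0.46 and so lay above AT3G04210. In pairs 3-4 and 5-6 the highest neighbours were at 0.47 and 0.31, well below it. With the running median of probes within 50 numbers taken off, the mean difference of AT3G04210 was 0.89 and ranked 45 by size.

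The levels of other genes were compared with those of AT3G04210 over the 6 samples, among the 641 other probes with 1 gene that were never at the floor. The 5 most alike by Pearson's r were AT4G35660 (0.96), AT1G31790 (0.94), AT3G18870 (0.92), AT5G66050 (0.91) and AT3G50130 (0.89). With the values as deposited, r of AT1G31790 was 0.50 and its mak3 minus WT difference 0.15 in place of 0.35, so its place here depends on the normalization. Spearman's rho of the 5 lay between 0.71 and 0.94. The genes were read on the same arrays, so r over 6 samples describes the likeness of levels in these samples and nothing more, and 30 of 3204 probes reached 0.9 or more. The likeness rested mostly on mak3 arrays 3 to 6: without those 2 samples, r over the other 4 was 0.39, 0.48, -0.27, 0.37 and 0.76. In pair 1-2 the 5 genes differed between genotypes by -0.18, 0.01, -0.18, -0.13 and 0.26, so none of them reached the 0.42 of AT3G04210 there.

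The most opposed levels of pair means were those of AT5G49590 (-0.99), AT3G20490 (-0.98), Z-ISO (-0.97), AT1G73120 (-0.95) and AT5G01860 (-0.92). In all, 36 of the 3204 probes were at -0.9 or below. The value of AT5G49590 rests on the mean of mak3 arrays 1 and 2, which read -0.67 and -1.15 on the log2 scale. The first of these lay above all 6 WT arrays and the second below them. Over the 12 single arrays its r was -0.80, without mak3 array 1 it was -0.81, and its difference was -0.18 from the first arrays of the pairs and -0.40 from the second. Z-ISO encodes the 15-cis-zeta-carotene isomerase, an enzyme of carotenoid synthesis in plastids. Its level was -0.38, -0.51 and -0.54 in the WT samples and -0.73, -1.07 and -1.01 in the mak3 samples. These means of repeat arrays did not overlap between the genotypes, but the single arrays did. WT array 6 read -0.69, below the -0.66 of mak3 array 1. All 5 of these genes were lower in mak3 in every pair, as were 20.2% of all probes, with mean differences between -0.46 and -0.29. They were selected to run opposite to a gene that was itself chosen for being higher in mak3, so nothing is read from their direction. Without the 2 mak3 samples of arrays 3 to 6, r over the other 4 was -0.98, -0.74, -0.84, -0.80 and -0.87.

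**Figure D5:**
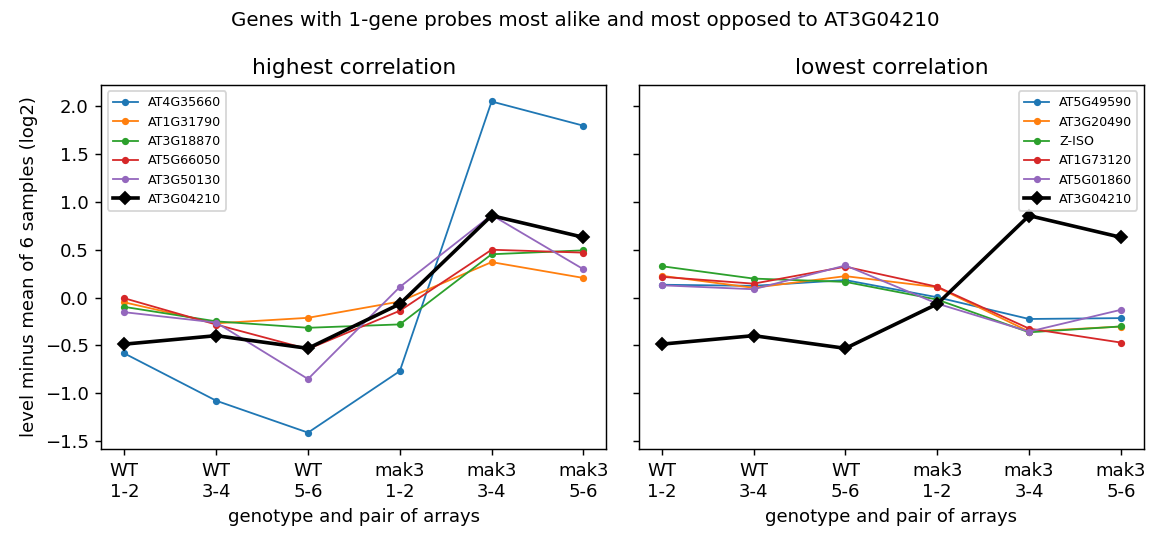
Levels of AT3G04210 (black) and of the 5 genes most alike (left) and most opposed (right) over the 6 samples, each as log2 level minus its own mean. The genes on the left have their highest levels on mak3 arrays 3 to 6, and those on the right their lowest levels.

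The genes of plant immunity listed for this comparison were barely covered by probes whose gene is settled. They were listed by identifier and are not all the immune genes. Only 692 of the 3439 probes name 1 gene, so the counts say little about immune genes in general. Of 27 intracellular immune receptors and 29 genes of immune signalling listed for this comparison, among them EDS1, PAD4, SAG101 and PR1, 0 had a probe naming that gene alone. A probe naming 2 genes, CSA1 and AT3G51570, was the 1 match. CSA1 encodes an immune receptor with TIR, nucleotide-binding and repeat domains. Its samples in WT were at -0.20, -0.45 and -0.50 and in mak3 at -0.16, -0.65 and -0.83 on the log2 scale, so the genotypes overlapped. Its mak3 minus WT difference was -0.17 ± 0.21 (SE, n = 3 against 3), with 0.04, -0.21 and -0.34 in the 3 pairs, and it did not pass the test of limma (adjusted p = 1). Which of its genes the probe reads is not settled. Among the 30 genes listed to either side of AT3G04210 on its chromosome, 0 had a probe with that gene alone, so its genomic neighbours could not be set beside it.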

How the data were processed

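The deposited table holds 1 intensity for each probe and array, with the authors' scanning, background correction and scaling not given in the sources used here. Between 129 and 142 values of an array were 0, and 9 arrays reached an upper limit of 100. Background signals were not at hand, and the number of arrays limits the precision. Arrays were quantile-normalized (limma 3.58.1, R 4.3.3), values under the 1st percentile of positive values (0.0412) were set to that floor, log2 was taken and repeat arrays were averaged. The deviations of repeat arrays from the mean of their genotype correlated at r = 0.758 to 0.883, and those of other arrays at -0.0645 or less. Deviations from a shared mean cancel out over the arrays, which by itself pushes the r of other arrays down. All probes were fitted with lmFit and eBayes. Such deviations of the WT and mak3 samples of a pair correlated at r = 0.602, 0.557 and 0.739, so, from the data and not the labels, the numbers pair the samples. The main fit, planned without the pairs, leaves this out, and the fit with them as a block is given beside it. The self-test used simulated and not measured values for 3439 probes. It called 32 of 100 probes changed 2-fold, 75 of 100 changed 4-fold and 10 of 3239 left unchanged (0.309%). The simulated samples were drawn independently, without the pairing seen in these data, so these shares may not hold for the real arrays. Genes named for likeness are the 5 highest and 5 lowest Pearson's r. The gene, lists and rules were chosen with earlier results of these data known. Names are those of the platform annotation, updated through gene identifiers.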

Additional observations from a re-analysis of the deposited data

Results flagged for a closer look

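The outermost of 6 arrays was examined for AT3G04210 and the 11 other probes compared with it, in 24 groups of 6 arrays. For AT3G04210 no array was set apart in either genotype. For AT5G49590 in mak3 the gap between the outermost array and its nearest neighbour was 0.921 of the whole range, past Dixon's limit for this group size. By chance about 1 in 20 groups of independent values would be, a rate that holds only roughly for repeat arrays.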

How the results depend on the processing

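Over 30 alternatives the mak3 minus WT difference of AT3G04210 stayed above 0 and ran from 0.79 to 1.21, with ranks by size from 25 to 110. Leaving out 1 array or 1 pair gave 0.79 to 1.21 for the difference, ranks from 31 to 110, WT levels from -0.60 to -0.53 and 0 calls throughout. Pairs 3-4 and 5-6 carried the rank: without pair 3-4 the difference was 0.79 and ranked 110, and without pair 5-6 it was 0.84 and ranked 72. Without pair 1-2 it was 1.21 and ranked 32. Array weights gave 1.18. The WT level, -0.56 in the main setting, was -0.47 with the values as deposited and -0.36 with log2(value + 0.1). With the running median of neighbouring probes taken off it was -0.46. The reason for each of these shifts was not tested. With the values as deposited the median difference of all probes was -0.19. With the pair number as replicate block limma called 0 probes and the difference was 0.94. With 12 arrays as separate samples 24 probes were called, and with 12 arrays and the replicate block 415 (12.1%), in fits that count each sample 2 times and so make p too small. The 10 genes compared for likeness and the probe naming CSA1 kept the sign of their differences under all 30, while the sizes varied. The r of AT4G35660, AT3G18870 and Z-ISO stayed within 0.1 of its main value under all 30, and that of the other genes did not. The r of AT1G31790 ran from 0.50 (as deposited) to 0.98, that of AT5G49590 from -0.997 to -0.80 (12 arrays) and moved by over 0.1 under 8 alternatives, and that of AT5G01860 from -0.996 to -0.70 (running median taken off). The probe naming CSA1 went from -0.37 (as deposited) to -0.05 (running median taken off).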
